A study of Mus musculus with 64 samples.

Results

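The data describe how mouse macrophages that had been exposed to benzo[a]pyrene (BaP) differed from macrophages that had received only the vehicle, 3 h after both were activated with killed bacteria (hk S.E., Salmonella enterica Serovar Enteritidis inactivated by heat). The members were the 4 libraries titled as wild type, BaP, activated, 3 h and the 4 titled as wild type, no ligand, activated, 3 h. These are 8 of the 64 libraries of the series. The macrophages were grown from bone marrow of female Ahr+/+ C57BL/6JRj mice aged 8 to 12 weeks, in medium enriched with macrophage colony-stimulating factor from L929 fibroblasts (bone marrow-derived macrophages, BMMs). They were harvested on day 6 and then exposed for 6 h to BaP at 1 µM in dimethyl sulfoxide (DMSO), or to DMSO alone at 0.01%. All 8 cultures then received 10000000 hk S.E. per ml. Groups used beside them were Ahr+/+ BMMs with DMSO and no hk S.E. at 3 h, Ahr+/+ BMMs with indole-3-carbinol (I3C) at 10 µM and hk S.E. at 3 h, Ahr+/+ BMMs with DMSO or BaP and hk S.E. at 20 h, and BMMs labelled Ahr-/- with DMSO or BaP and hk S.E. at 3 h, each with 4 libraries. The Ahr-/- mice lacked the receptor in all their cells and were bred onto the same strain. The methods give 4 mice per genotype, so libraries of one number were read as cultures of one mouse, although the labels do not state this.

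The aryl hydrocarbon receptor (AhR) is a transcription factor that waits in the cytosol in a complex with chaperones such as HSP90. A ligand such as the polycyclic hydrocarbon BaP sends it to the nucleus, where it pairs with ARNT and binds response elements with the core GCGTG (AHRE). Its best known targets are the xenobiotic-metabolizing enzymes of the CYP1 family and Ahrr, the gene of the AhR repressor, which competes with AhR for ARNT and closes a feedback loop. In macrophages AhR also meets the NF-kB and interferon pathways that bacteria switch on.

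The 8 libraries held 12804830 to 22641087 counts on genes. BaP replicate 2 had the fewest counts and stood apart from the rest, with 5.23% of read pairs of low alignment quality against 1.18% to 1.75% in the other 7 libraries. It lay at 59.9 on a first principal component that held 25.9% of the variance, where the other 7 lay below 0. Macrophage markers (Adgre1, Itgam, Csf1r, Cd68, Mertk, Fcgr1, Lyz2 and Cd14, all 8 tested) summed to 31650 to 34773 CPM (counts scaled to library size) with DMSO and to 31037 to 34475 CPM with BaP. Neutrophil markers summed to 111 to 261 CPM with DMSO and to 183 to 224 CPM with BaP, and the summed markers of dendritic, T, NK, B, mast, erythroid and stromal cells reached at most 2.25 CPM in a library. Of the erythroid list, 5 of 6 markers were at 0 in all 8 libraries. Ahr itself was counted at 9.77, 6.67, 7.13 and 4.46 CPM with DMSO, at 7.92, 7.37, 7.08 and 5.42 CPM with BaP and at 12.8 to 13.1 CPM in the DMSO libraries labelled Ahr-/-. Its count covers all its exons and was not lower under the Ahr-/- label, so it does not check the genotype.

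BaP raised 7 genes and lowered none at an adjusted p below 0.01 (edgeR quasi-likelihood test, Benjamini-Hochberg over 14537 genes, 0.0482% called). The 7 were Ahrr, Arl4c, Eepd1, Spint1, Elmsan1, Exoc3 and Il21r, with rises from 1.25-fold (Exoc3) to 10.2-fold (Ahrr). On GRCm38 they span chr13:74211118-74292331 (Ahrr, minus strand), chr1:88673125-88702221 (Arl4c, minus), chr9:25481547-25604110 (Eepd1, plus), chr2:119237362-119249527 (Spint1, plus), chr12:84149176-84218881 (Elmsan1, minus), chr13:74169488-74208732 (Exoc3, minus) and chr7:125603429-125633570 (Il21r, plus), and the counts cover the exons of each gene. For each of the 7, all 4 BaP libraries lay above all 4 DMSO libraries. The 4 of 4 pairs of same-numbered libraries that were higher with BaP follow from this and are no separate evidence. When the mouse was added to the model as a block (replicate numbers within each genotype), 13 genes passed, all higher (0.0894%), namely the same 7 and Ptgs1, Ugt1a7c, Mmp8, Ier3, Smox and Serpinb2. Neither of these fits over all 64 libraries called a gene lower, while 163 genes were lower and 227 higher at an unadjusted p below 0.05. At an adjusted p below 0.05 the model of group means called 9 genes, all higher (0.0619%), and DESeq2 on all libraries also called 9 at 0.01. Without BaP replicate 2, 3 genes stayed called, Ahrr, Arl4c and Eepd1, and these 3 were called whichever of the 8 libraries was left out. A fit of the 8 compared libraries alone called 3 genes, Ahrr, Elmsan1 and Ier3, and not Arl4c (adjusted p = 0.0367) or Eepd1 (0.0116, edgeR). With the block that smaller fit called 115, of which 101 were higher and 14 lower. The count was likewise 3 without DMSO replicate 1 and without DMSO replicate 4.

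**Figure D1:**
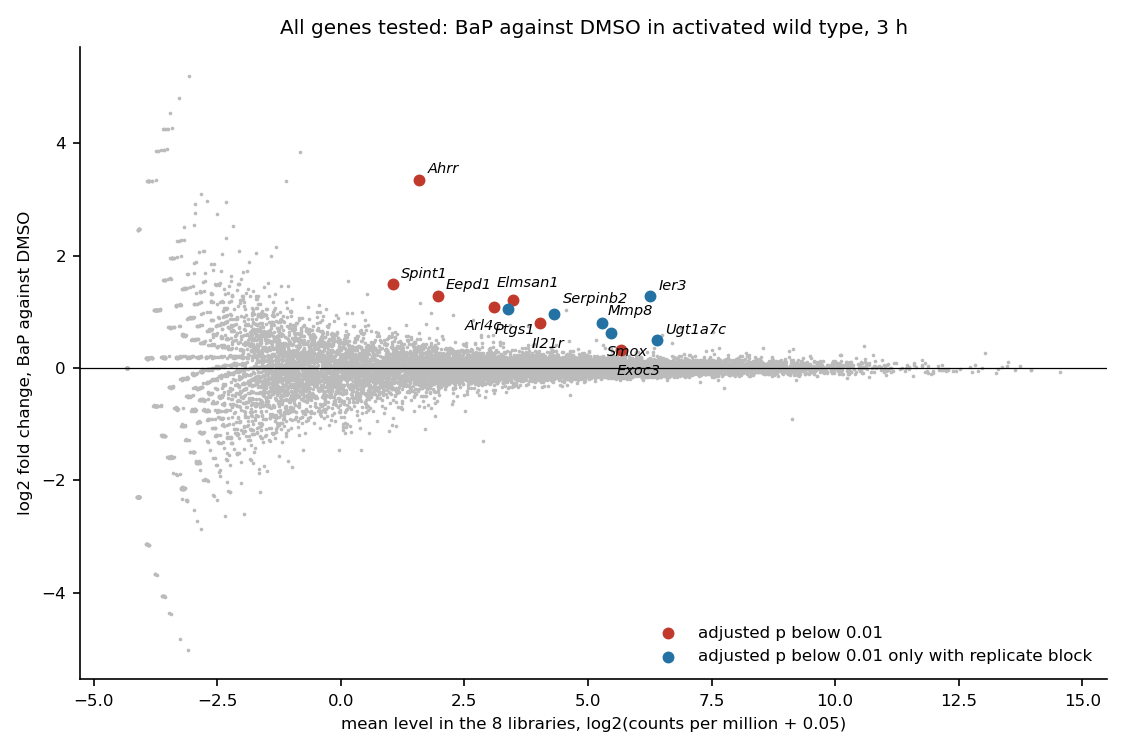
Log2 fold change of BaP against DMSO in activated Ahr+/+ BMMs at 3 h (vertical axis) against the mean level over the 8 libraries on a log2 scale (horizontal axis) for the 14537 genes tested (grey). Red points are the 7 genes called in the model of group means and blue points the 6 called only with the replicate block, all 13 of them above 0.

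The median log2 fold change over all genes was 0.00 and the median of its size was 0.09, with 49.4% of genes above 0. The 4 BaP libraries lay above all 4 DMSO libraries for 317 genes (2.18%) and below them for 252 (1.73%). The gene nearest inside the threshold was Il21r, with an adjusted p of 0.00766 by edgeR, and the next outside it were Ptgs1 (0.0221), Ugt1a7c (0.0331), Ggta1 (0.0724), Mmp8 (0.203) and Pim3 (0.229).

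The AhR feedback gene Ahrr had the smallest p of the called genes. Ahrr was counted at 0.562, 0.566, 0.346 and 0.582 CPM with DMSO and at 4.18, 6.96, 4.79 and 5.56 CPM with BaP, so that the groups lay far apart although the gene held only 5 to 10 counts in a DMSO library and 57 to 78 in a BaP library. It rose by 3.36 on the log2 scale (SE 0.26, adjusted p = 7.13e-14, edgeR), which is 10.2-fold with a 95% interval of 7.13 to 14.7. Without ligand and without hk S.E. it stood at 2.42 to 3.79 CPM. Each of the 4 BaP libraries lay above all 4 libraries of resting cells.

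The CYP1 enzymes were not measurable. Cyp1a1 had 0 counts in every DMSO library and at most 1 count in a BaP library, Cyp1a2 had 0 in all 8 and Cyp1b1 had 0 to 1 with DMSO and 0 to 5 with BaP. A count of 0 in these libraries allows up to 3 counts, so a rise of these genes by a few counts was not detectable at this depth. A rise to counts such as the 57 to 78 of Ahrr with BaP was not seen. Of 14 AhR targets listed, 6 passed the filter on low counts, 1 of them was called (Ahrr) and 2 with the block, and their median log2 fold change was 0.62 against 0.00 over all genes. The 8 others were too low to test, and Ugt1a6a, which did pass the filter, stood at only 0.0566 to 0.208 CPM with DMSO and 0.0733 to 1.82 CPM with BaP. Its change of 2.15 (SE 1.18) enters this median. BaP replicate 2 held 18 of its counts, against 1, 4 and 3 in BaP replicates 1, 3 and 4. Without BaP replicate 2 the median of the list was 0.55. Nqo1, the quinone reductase, was counted at 9.56, 10.1, 12.8 and 8.34 CPM with DMSO and at 15.9, 12.5, 25.0 and 14.98 CPM with BaP. These groups overlapped, with a log2 fold change of 0.75 (SE 0.24, adjusted p = 0.940, and 0.0155 with the block, edgeR). Tiparp, the AhR-induced ADP-ribosylase that feeds back on AhR, stood at 369 to 461 CPM with DMSO and 386 to 447 CPM with BaP. Xdh, xanthine dehydrogenase, stood at 238 to 294 and 231 to 291 CPM. None of the 11 genes listed for the receptor complex, among them Ahr, Arnt, Hsp90aa1, Hsp90ab1 and Relb, was called, and their median log2 fold change was -0.01.

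Ugt1a7c, a glucuronosyltransferase of the Ugt1a cluster that conjugates xenobiotics, was counted at 64.7, 73.8, 72.8 and 66.5 CPM with DMSO and at 92.5, 110, 93.8 and 95.2 CPM with BaP. The groups did not overlap, and the log2 fold change of 0.50 (SE 0.11) had an adjusted p of 0.0331 without and 0.00928 with the block (edgeR). The gene overlaps Ugt1a6a and Ugt1a6b on the same strand. Reads that lay only in exons these genes share were ambiguous and counted for none of them, so the level given may be too low. Which transcripts of the cluster rose was not tested.

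Arl4c, Eepd1 and Elmsan1 rose with BaP from a level far below that of resting cells. Arl4c encodes a small GTPase of the ARF family. It stood at 6.68, 5.71, 3.46 and 5.88 CPM with DMSO and at 14.7, 12.1, 9.45 and 10.3 CPM with BaP, against 115 to 122 CPM without hk S.E., and BaP raised it by 1.09 on the log2 scale (SE 0.12, adjusted p = 2.24e-08, edgeR). Eepd1, a protein with an endonuclease/exonuclease/phosphatase domain, stood at 2.53, 1.87, 2.70 and 1.88 CPM with DMSO and at 4.69, 4.94, 6.70 and 5.35 CPM with BaP, against 36.0 to 48.0 CPM in resting cells. Its rise was 1.29 (SE 0.20, adjusted p = 1.82e-04, edgeR). Elmsan1, a subunit of a histone deacetylase complex, stood at 6.26, 6.50, 8.45 and 5.69 CPM with DMSO and at 13.8, 17.4, 15.4 and 16.1 CPM with BaP, against 26.4 to 34.9 CPM in resting cells. It rose by 1.22 (SE 0.22, adjusted p = 0.00238, edgeR), a call that was lost without any 1 of DMSO replicates 1, 2 and 4 or BaP replicate 2 (adjusted p up to 0.0316). In all 3 genes the BaP and DMSO libraries did not overlap, and the BaP libraries lay between the activated and the resting ones.

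The change from resting to activated cells uses the same 4 DMSO libraries as the change with BaP, so the pair of values for a gene is not independent. Activation changed Ahrr by -2.62, Arl4c by -4.44, Eepd1 by -4.24, Spint1 by -2.39, Elmsan1 by -2.16, Exoc3 by -0.48 and Il21r by -0.49 on the log2 scale. BaP changed the same genes by 3.36, 1.09, 1.29, 1.49, 1.22, 0.32 and 0.81. Of all genes tested, 32.3% were called lower and 24.2% higher with hk S.E. in Ahr+/+ BMMs.

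**Figure D2:**
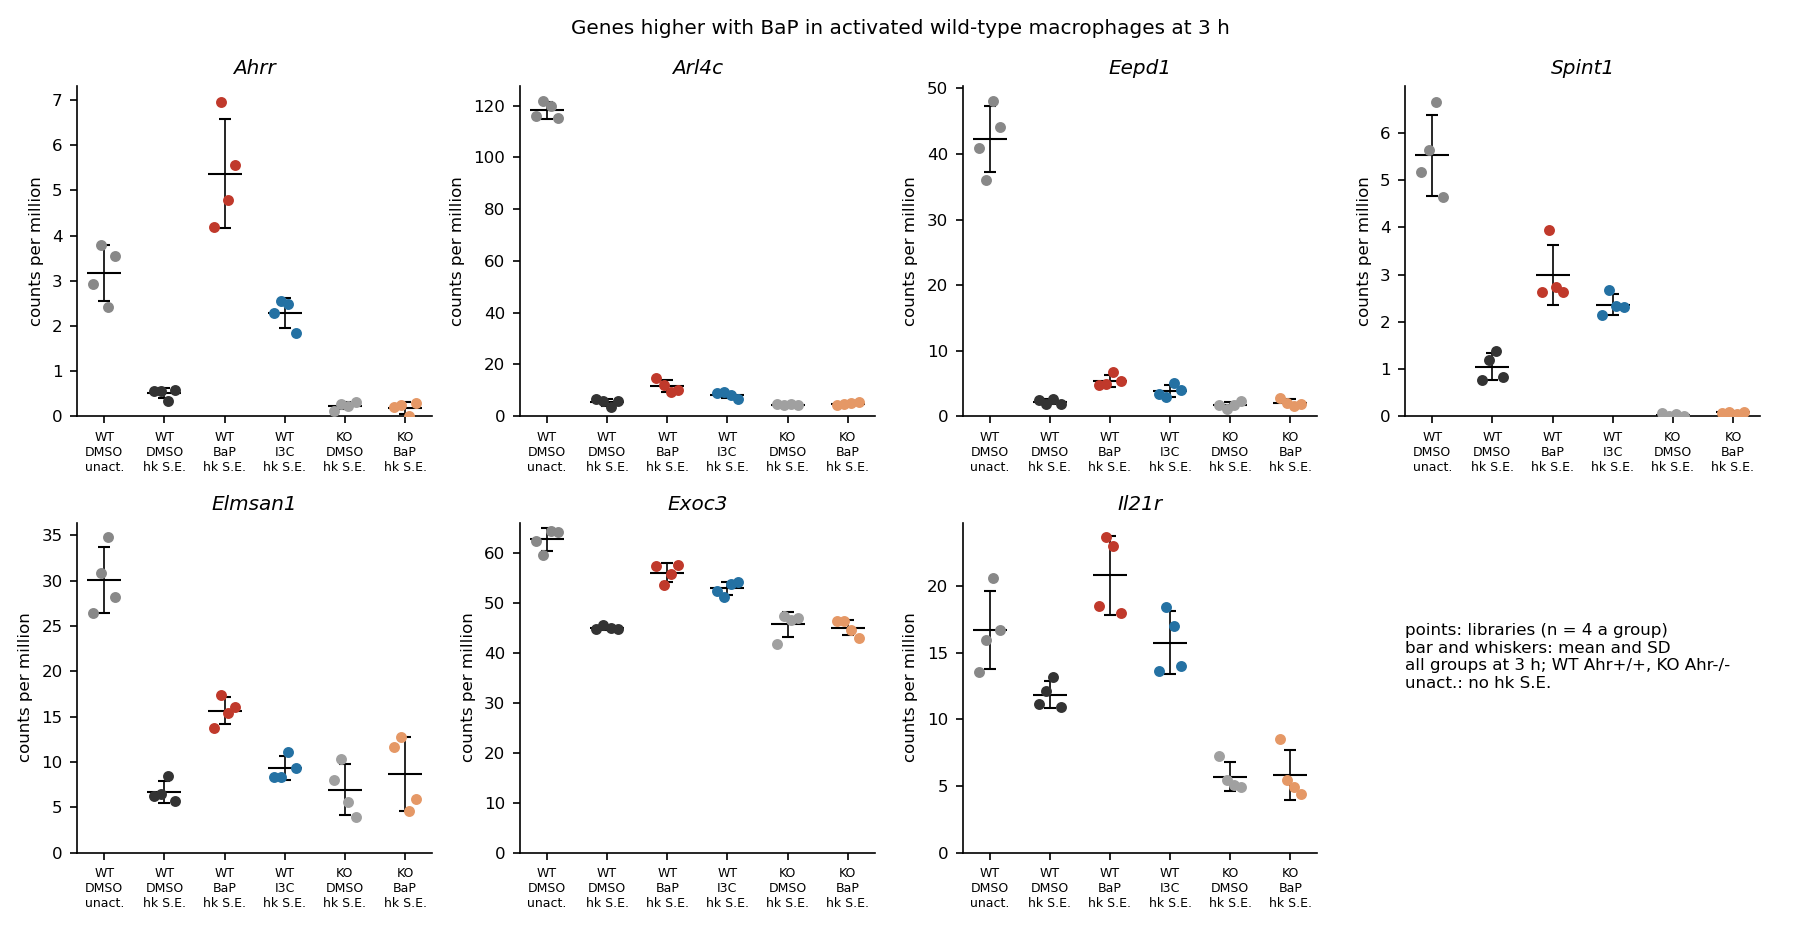
CPM (vertical axes, from 0) of the 7 genes called with BaP, in each library of 6 groups at 3 h (points), with the mean and SD of the 4 libraries (bars and whiskers). In every panel the 4 BaP libraries of activated wild type (WT) lie above the 4 DMSO libraries, and in the cells labelled Ahr-/- (KO) BaP and DMSO libraries overlap or, for Spint1, lie near 0.

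The genes of proteases and their inhibitors gave 1 call. Spint1, a Kunitz-type inhibitor of serine proteases at the cell surface, stood at 0.773, 1.19, 1.38 and 0.841 CPM with DMSO and at 2.64, 3.94, 2.74 and 2.64 CPM with BaP. It held only 11 to 21 counts in a DMSO library and 36 to 43 in a BaP library, yet the groups did not overlap. It rose by 1.49 (SE 0.25, adjusted p = 8.75e-04, edgeR), and the call was lost without DMSO replicate 1, DMSO replicate 4 or BaP replicate 2 (adjusted p up to 0.0195). Of 14 inhibitors tested, 1 was called higher and 2 with the block, with a median of 0.12. The other was Serpinb2, plasminogen activator inhibitor 2, which stood at 11.9, 12.4, 17.9 and 11.7 CPM with DMSO and at 23.2, 25.9, 31.7 and 24.5 CPM with BaP. It was higher in 4 of 4 pairs by 0.82 to 1.06 on the log2 scale, without overlap. The fitted change of 0.97 had an SE of 1.09 and an adjusted p of 1 without the block, against an SE of 0.19 and 0.00928 with it (edgeR). DESeq2 on the wild-type libraries with a replicate term gave an adjusted p of 0.0312. The model takes its spread from all 64 libraries, among them DMSO libraries labelled Ahr-/- with 6.79, 10.7, 0 and 0 CPM of this gene. A fit of only the 8 libraries compared did not call it either. What widened the SE was not tested. Slpi stood at 23.0 to 38.8 CPM with DMSO and at 22.8 to 45.5 CPM with BaP.

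The promoters of the genes called in either model were searched because AhR and ARNT bind the AHRE core GCGTG. Only those with a match are printed. The 250 bases before the start site were read from RefSeq (GRCm38.p6) for 12 of the 13 genes and searched on both strands, so that CACGC also counts. Capitals mark each match.
Ahrr (chr13:74292332-74292581, minus strand): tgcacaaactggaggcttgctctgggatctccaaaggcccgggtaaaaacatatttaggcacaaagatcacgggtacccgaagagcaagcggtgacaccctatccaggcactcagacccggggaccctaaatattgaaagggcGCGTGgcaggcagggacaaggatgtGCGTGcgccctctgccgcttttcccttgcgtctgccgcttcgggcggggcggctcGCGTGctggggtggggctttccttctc
Arl4c (chr1:88702192-88702441, minus strand): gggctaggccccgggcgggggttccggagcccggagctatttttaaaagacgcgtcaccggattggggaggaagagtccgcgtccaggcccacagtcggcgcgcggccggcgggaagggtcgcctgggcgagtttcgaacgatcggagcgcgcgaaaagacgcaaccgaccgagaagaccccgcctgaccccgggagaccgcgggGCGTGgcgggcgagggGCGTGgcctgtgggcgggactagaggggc
Eepd1 (chr9:25481347-25481596, plus strand): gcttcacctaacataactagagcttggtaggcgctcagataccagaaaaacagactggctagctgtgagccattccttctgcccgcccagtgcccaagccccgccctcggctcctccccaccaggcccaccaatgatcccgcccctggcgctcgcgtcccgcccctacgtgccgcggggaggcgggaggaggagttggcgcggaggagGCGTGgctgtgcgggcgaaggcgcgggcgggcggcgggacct
Spint1 (chr2:119237110-119237359, plus strand): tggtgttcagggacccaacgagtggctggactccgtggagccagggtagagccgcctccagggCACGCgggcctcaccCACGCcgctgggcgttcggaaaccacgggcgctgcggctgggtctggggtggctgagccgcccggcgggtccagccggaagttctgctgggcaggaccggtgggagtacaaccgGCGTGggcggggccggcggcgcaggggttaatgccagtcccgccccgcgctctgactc
Ahrr held 3 matches, Arl4c 2, Eepd1 1 and Spint1 3. The windows of Exoc3, Il21r, Ptgs1, Ugt1a7c, Mmp8, Ier3, Smox and Serpinb2 held none. The core was thus in 4 of the 13 promoters read for these 12 genes. It was in the window of 43.7% of 12745 promoters of tested genes and of 28.2% of all 32851. The other elements searched by their published letters on both strands, AHRE-II and the RelB AHRE, matched none of these 12 genes and 0.777% and 0.345% of the promoters of tested genes. A match is a run of letters, not a site shown to be bound. The 4 genes printed are also the 4 called genes of smallest p, and this was not tested. Elmsan1, the called gene next in p, was the gene without a promoter to read.

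Of 16 metalloproteinases and their inhibitors, none was called in the model of group means and 1 with the block. This was Mmp8, the collagenase best known from neutrophils, at 28.6, 34.4, 26.5 and 23.3 CPM with DMSO and 58.0, 51.4, 46.7 and 40.6 CPM with BaP. The groups did not overlap, and the change of 0.80 had an adjusted p of 0.203 without (SE 0.20) and 2.71e-05 with the block (edgeR). Neutrophil marker sums overlapped between the groups, as given above, and their part in this result was not tested. Its neighbours Mmp27 and Mmp10 had changes of 0.48 (SE 0.32) and 0.45 (SE 0.26), and neither passed. Mmp13 stood at 2929 to 4227 CPM with DMSO and 3311 to 4385 CPM with BaP.

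Among 27 cytokine receptors, 1 was called. Il21r, the receptor of the T cell cytokine IL-21, stood at 11.2, 12.2, 13.2 and 10.9 CPM with DMSO and at 18.6, 23.7, 23.0 and 17.97 CPM with BaP. The groups lay well apart, and the gene rose by 0.81 on the log2 scale, or 1.75-fold (SE 0.16, adjusted p = 0.00766, edgeR). The call held only without BaP replicate 4 among the 8 fits that left out 1 library, where the adjusted p ran from 0.00905 to 0.118, while the fold change stayed between 0.74 and 0.87. Csf2rb, the common beta chain of the GM-CSF receptor, stood at 485 to 511 CPM with DMSO and 563 to 587 CPM with BaP, a change of 0.20 (SE 0.10, adjusted p = 1).

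Exoc3, a subunit of the exocyst that tethers secretory vesicles, showed the smallest called change and the tightest groups. It stood at 44.6, 45.5, 44.9 and 44.7 CPM with DMSO and at 57.4, 53.6, 55.7 and 57.5 CPM with BaP, a rise of 0.32 (SE 0.06, adjusted p = 0.00684, edgeR). The call was lost in all 8 fits that left out 1 library, with adjusted p from 0.0133 to 0.0476 and changes from 0.30 to 0.33. Exoc3 lies 2386 bases downstream of Ahrr on the same strand of chromosome 13 (GRCm38). The other 5 tested genes within 100000 bases of Ahrr had changes of -0.04 (Pdcd6, SE 0.06), -0.01 (Sdha, SE 0.05), 0.00 (Ccdc127, SE 0.09), -0.75 (Lrrc14b, SE 0.97) and 0.79 (Zfp72, SE 0.74), none of which passed.

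The 3 further genes called only with the block belong to lipid mediator, stress and polyamine pathways. Ptgs1, the constitutive cyclooxygenase, stood at 5.69, 6.33, 6.44 and 8.28 CPM with DMSO, at 11.7, 13.6, 13.7 and 16.8 CPM with BaP and at 13.3 to 17.6 CPM in resting cells. Its change was 1.06 in the model of group means (SE 0.22, adjusted p = 0.0221, edgeR), and 8.16e-04 with the block. Ier3, an immediate early gene that modulates NF-kB and cell survival, stood at 47.9, 46.5, 51.3 and 32.5 CPM with DMSO and at 101, 133, 106 and 91.7 CPM with BaP, against 8.42 to 13.1 CPM in resting cells. Its change of 1.278 had an SE of 0.32 and an adjusted p of 0.229 without, and 4.53e-05 with the block (edgeR). Smox, spermine oxidase, stood at 35.8, 36.1, 34.5 and 32.1 CPM with DMSO and at 49.0, 64.9, 56.5 and 43.4 CPM with BaP, a change of 0.62 (SE 0.18, adjusted p = 0.504, and 2.55e-04 with the block, edgeR). None of these groups overlapped. Ier3 and Serpinb2 were higher in activated than in resting cells, with log2 changes of 2.14 and 8.27.

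**Figure D3:**
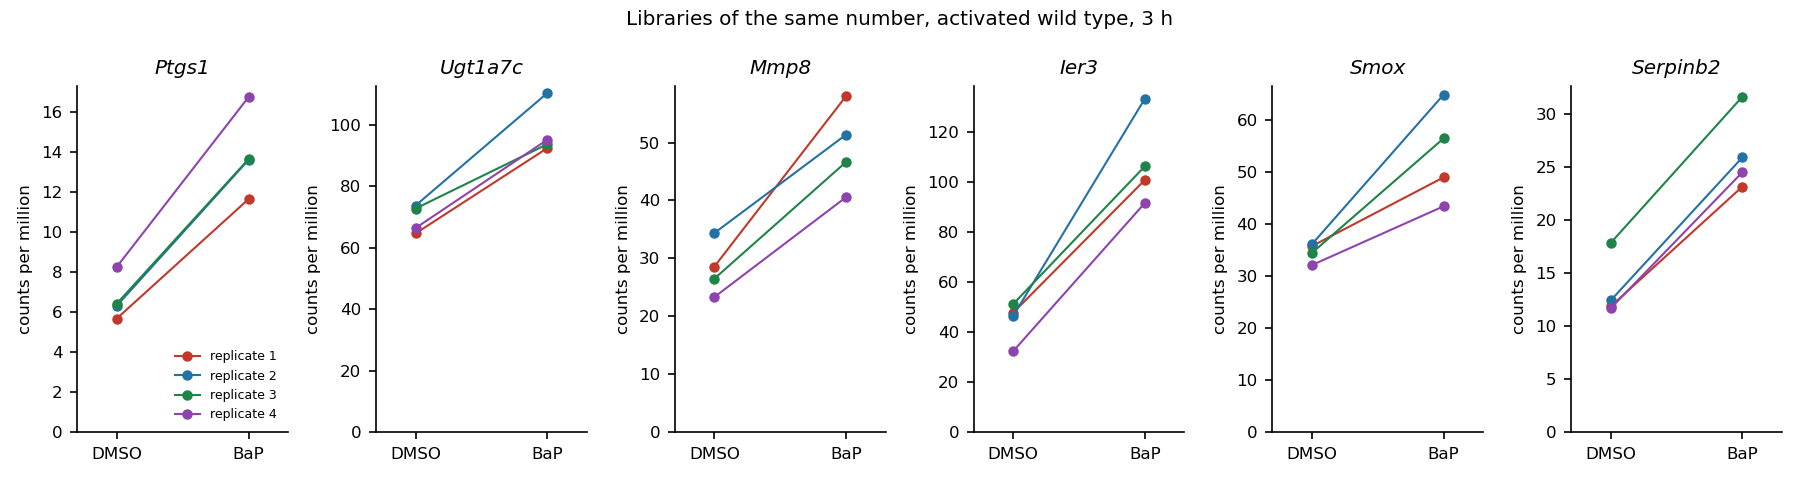
CPM (vertical axes, from 0) of the 6 genes called only with the replicate block, in the DMSO and BaP libraries of activated Ahr+/+ BMMs at 3 h, with lines joining libraries of the same replicate number. In each panel the BaP points lie above all DMSO points, so that all 4 lines rise.

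The lower side held small or sparse changes. The 10 genes of smallest p were Usp49, Gins3, Gm9512, Gm49205, Pbld2, Adam1a, 9930017N22Rik, 1500004A13Rik, Ccdc180 and Tbp, and none passed, with adjusted p from 0.229 to 0.844 (edgeR). Usp49, a deubiquitinase, stood at 1.34, 1.75, 1.45 and 1.94 CPM with DMSO and at 0.807, 0.706, 1.08 and 0.785 CPM with BaP, without overlap (change -0.92, SE 0.21). Tbp, the TATA-binding protein of general transcription, stood at 15.3 to 17.6 CPM with DMSO and 11.0 to 14.6 CPM with BaP (change -0.34, SE 0.11). Gm9512, a processed pseudogene, stood at 8.31 to 11.4 CPM with DMSO and at 2.13, 1.21, 2.87 and 10.3 CPM with BaP, so its groups overlapped through BaP replicate 4. Without this library it was the 1 gene called lower.

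In BMMs labelled Ahr-/-, the same exposure called none of the 13 genes. It called 4 of all genes (0.0275%), each a pseudogene and lower with BaP. For each of the 13 genes the 95% interval of the log2 change held 0. With the replicate block none of the 13 passed there either, with adjusted p of at least 0.377 (edgeR), while Smox and Spint1 were higher with BaP in 4 of 4 pairs. The changes there ran from -0.35 to 1.47, with 8 of 13 above 0, beside 51.1% of all genes. The largest of them, for Spint1, rests on 0 to 0.0983 CPM in each of these 8 libraries and gives no usable fold. Ahrr stood at 0.125, 0.275, 0.221 and 0.319 CPM with DMSO and at 0.204, 0.246, 0 and 0.285 CPM with BaP. Arl4c stood at 4.26 to 4.80 and 4.41 to 5.42 CPM, and Exoc3 at 41.8 to 47.4 and 43.0 to 46.3 CPM. The test of the difference between genotypes passed for 2 genes (0.0138% of those tested), both larger in Ahr+/+ (49.1% of all genes had a larger value there), Ahrr by 3.69 (SE 0.55, adjusted p = 2.04e-04) and Arl4c by 0.97 (SE 0.18, adjusted p = 0.00711, edgeR). The call of Arl4c was lost in most fits that left out 1 of the 16 libraries (adjusted p from 0.00195 to 0.126, edgeR). In a fit of these 16 libraries alone neither passed, with adjusted p of 0.364 for Ahrr and 1 for Arl4c (edgeR), and without the filter on low counts Arl4c did not pass (0.0246). For the other called genes the difference was 1.03 for Eepd1 (SE 0.30), 0.91 for Elmsan1 (SE 0.31), 0.78 for Il21r (SE 0.23) and 0.34 for Exoc3 (SE 0.09), none of which passed (adjusted p from 0.477 to 1). The fitted difference for Spint1, 0.02 (SE 0.17), rests on the near-absent counts of the Ahr-/- libraries and was not read.

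Several of these genes were already low without ligand in the cells labelled Ahr-/-. Spint1 was at most 0.0623 CPM there with DMSO against 0.773 to 1.38 CPM in Ahr+/+, and Mmp8 stood at 2.75 to 3.80 CPM against 23.3 to 34.4 CPM, a log2 difference of -3.15 (SE 0.23, adjusted p = 2.18e-15, edgeR). Il21r stood at 4.92 to 7.29 CPM against 10.9 to 13.2 CPM, a difference of -1.07 (SE 0.17, adjusted p = 3.12e-05, edgeR). Among all genes 1.61% were called lower in this comparison. It uses the same Ahr+/+ DMSO libraries as the comparison with BaP.

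At 20 h, in other libraries of Ahr+/+ BMMs, all 13 genes had a positive change with BaP, beside 49.9% of all genes. Of these, 3 were called at that time, beside 0.0963% of all genes called higher and 0.234% called in either direction. They were Ahrr by 1.73 (SE 0.18, adjusted p = 4.22e-09), Spint1 by 1.54 (SE 0.20, adjusted p = 2.77e-06) and Mmp8 by 1.62 (SE 0.20, adjusted p = 7.01e-07, edgeR). Ahrr stood at 4.58 to 6.16 CPM with DMSO and 17.2 to 20.7 CPM with BaP, and Spint1 at 2.04 to 2.77 and 6.69 to 7.41 CPM. Elmsan1 stood at 36.0 to 47.4 CPM with DMSO and 45.9 to 49.5 CPM with BaP at 20 h, a change of 0.14 (SE 0.19). The test of the difference between the time points called 0 of 14537 genes (edgeR), with 734 at an unadjusted p below 0.05, and DESeq2 on all libraries called 2. At an adjusted p below 0.05 it passed for Ahrr, whose change was smaller at 20 h by 1.62 (SE 0.32, adjusted p = 0.0470), and for Emp1, with changes of 0.00 at 3 h and 1.46 more at 20 h (adjusted p = 0.0470, edgeR).

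I3C, an indole from cruciferous vegetables, was given at 10 µM and BaP at 1 µM, and both were set against the same DMSO libraries. I3C called 19 genes (0.131% of all), 17 lower and 2 higher. The 2 higher were Ahrr and Arl4c, both among the 13 genes, and 17 of the 19 were pseudogenes. The log2 changes with BaP and I3C were 3.36 and 2.13 for Ahrr, 1.09 and 0.60 for Arl4c, 1.29 and 0.78 for Eepd1, 1.49 and 1.17 for Spint1, 1.22 and 0.47 for Elmsan1, 0.32 and 0.23 for Exoc3, and 0.81 and 0.41 for Il21r. Set directly against each other, the BaP and I3C libraries differed in 16 genes (0.11%), all higher with BaP, and leaving out 1 library moved this count to between 2 (without I3C replicate 1) and 20 (without BaP replicate 2). Ahrr was 2.34-fold higher with BaP (95% interval 1.75 to 3.15, adjusted p = 0.00163, edgeR), at 4.18 to 6.96 against 1.83 to 2.55 CPM. It was the 1 protein-coding gene of the 16. The other 15 were processed pseudogenes such as Gm5869, which stood at 15.5 to 17.5 CPM with DMSO and 11.4 to 20.0 CPM with BaP, against 4.34 to 7.22 CPM with I3C. Arl4c was 1.41-fold higher with BaP (95% interval 1.19 to 1.66, adjusted p = 0.0483, edgeR), and Spint1 1.25-fold (0.908 to 1.73, adjusted p = 1, edgeR).

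**Figure D4:**
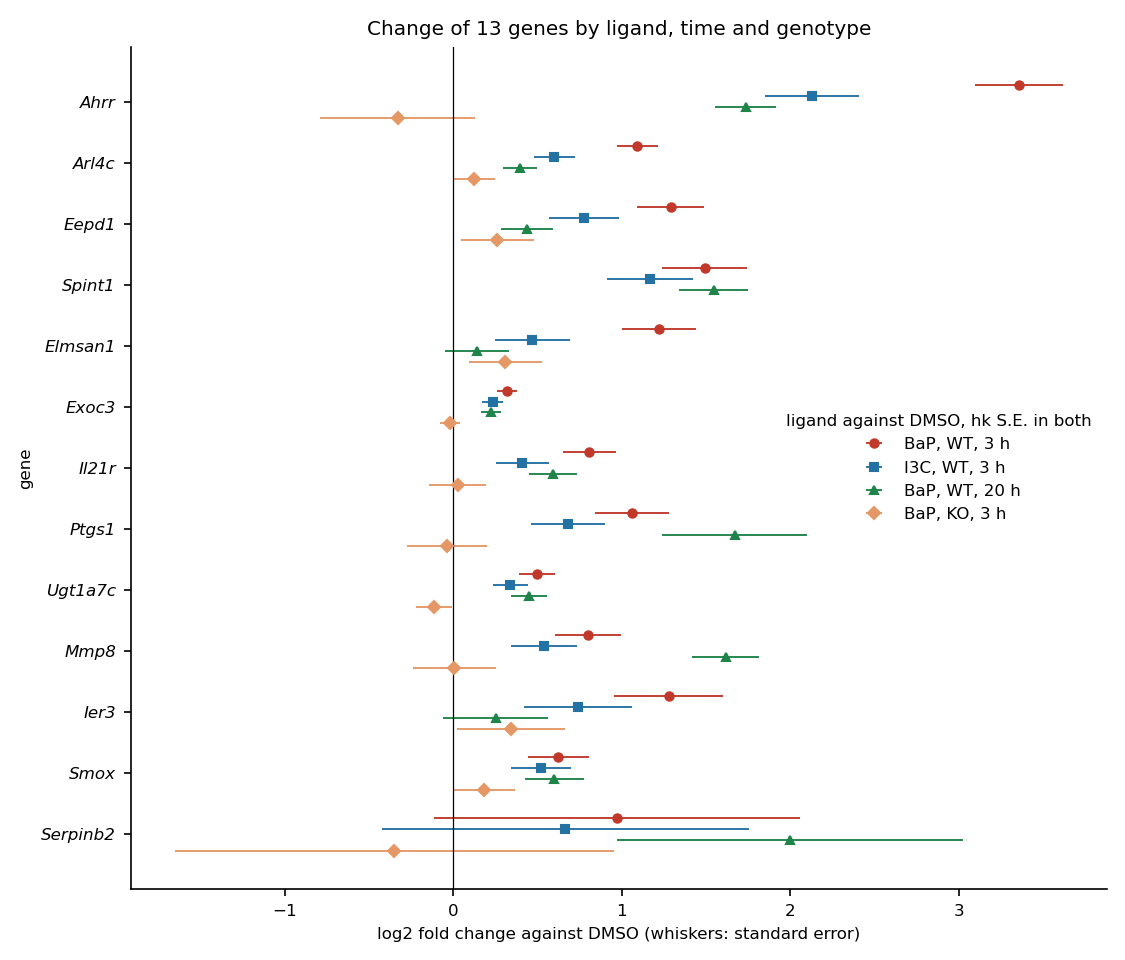
Log2 fold change against DMSO (horizontal axis, whiskers give the standard error) of the 13 genes with BaP or I3C in Ahr+/+ (WT) BMMs at 3 h, with BaP at 20 h and with BaP in BMMs labelled Ahr-/- (KO) at 3 h, hk S.E. in all. Red circles lie at 0.32 to 3.36 and orange diamonds at -0.35 to 0.34, with Spint1 left out of the latter because its libraries there hold at most 0.0983 CPM.

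No gene of the inflammatory lists named next was called. Il21r of the cytokine receptors and, with the block, Ier3 of the AP-1 and EGR genes are outside these lists. Of 23 cytokines, 17 chemokines, 24 pattern recognition receptors, 17 genes of NF-kB and its feedback, 15 SOCS and dual-specificity phosphatases and 32 interferon-stimulated genes tested, none passed with or without the block. Tnf stood at 4676 to 5413 CPM with DMSO and 4527 to 5432 CPM with BaP, Il1b at 3771 to 4488 and 3470 to 4287 CPM, and Cxcl10 at 9290 to 11178 and 8788 to 11904 CPM. Il10 stood at 9.70, 16.1, 10.7 and 7.24 CPM with DMSO and 11.0, 22.3, 12.3 and 11.5 CPM with BaP, a change of 0.37 (SE 0.28, adjusted p = 1, edgeR). The interferon-stimulated genes had a median of 0.00 and ran from -0.12 to 0.11, with 16 of 32 above 0. Among them Irf1 stood at 1329 to 1488 CPM with DMSO and 1461 to 1602 CPM with BaP. Without BaP replicate 2, 28 of the 32 lay below 0, with a median of -0.08.

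Of 9 enzymes of tryptophan and kynurenine metabolism, none was called. Ido2, which opens the indole ring of tryptophan, stood at 2.46, 1.81, 1.32 and 1.81 CPM with DMSO and at 5.06, 3.94, 2.94 and 4.56 CPM with BaP, without overlap (change 1.16, SE 0.31, adjusted p = 0.404, and 0.0146 with the block, edgeR). Il4i1, an amino acid oxidase that acts on phenylalanine and tryptophan, stood at 76.5, 82.2, 114 and 87.0 CPM with DMSO and at 114, 162, 162 and 149 CPM with BaP (change 0.70, SE 0.26, adjusted p = 1, edgeR). Of 19 NRF2 antioxidant genes, 21 p53 targets, 16 clock genes and 12 enzymes of nitric oxide, arginine and itaconate, none was called either, and the medians were 0.04, 0.04, -0.05 and 0.03. Cdkn1a, the p53 target that arrests the cell cycle, stood at 1515 to 1800 CPM with DMSO and 1604 to 1829 CPM with BaP. Of 24 cell cycle genes, 21 lay below 0 with a median of -0.11, and none was called. Mcm4, a helicase subunit of DNA replication, had the smallest p of them, at 27.1 to 32.5 CPM with DMSO and 20.1 to 30.1 CPM with BaP (change -0.27, SE 0.16). Without BaP replicate 2, 23 of the 24 lay below 0. Of 18 AP-1 and EGR genes, 16 lay above 0 with a median of 0.09, and Ier3 was the 1 called with the block. Without BaP replicate 2, 5 of these 18 lay below 0, and the median was 0.06.

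The list of 29 genes that the study names was chosen by the study on these samples and is no independent evidence. Of these, 3 were called (Ahrr, Spint1 and Il21r), 4 with the block (also Mmp8), and 15 of 29 lay above 0.

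**Figure D5:**
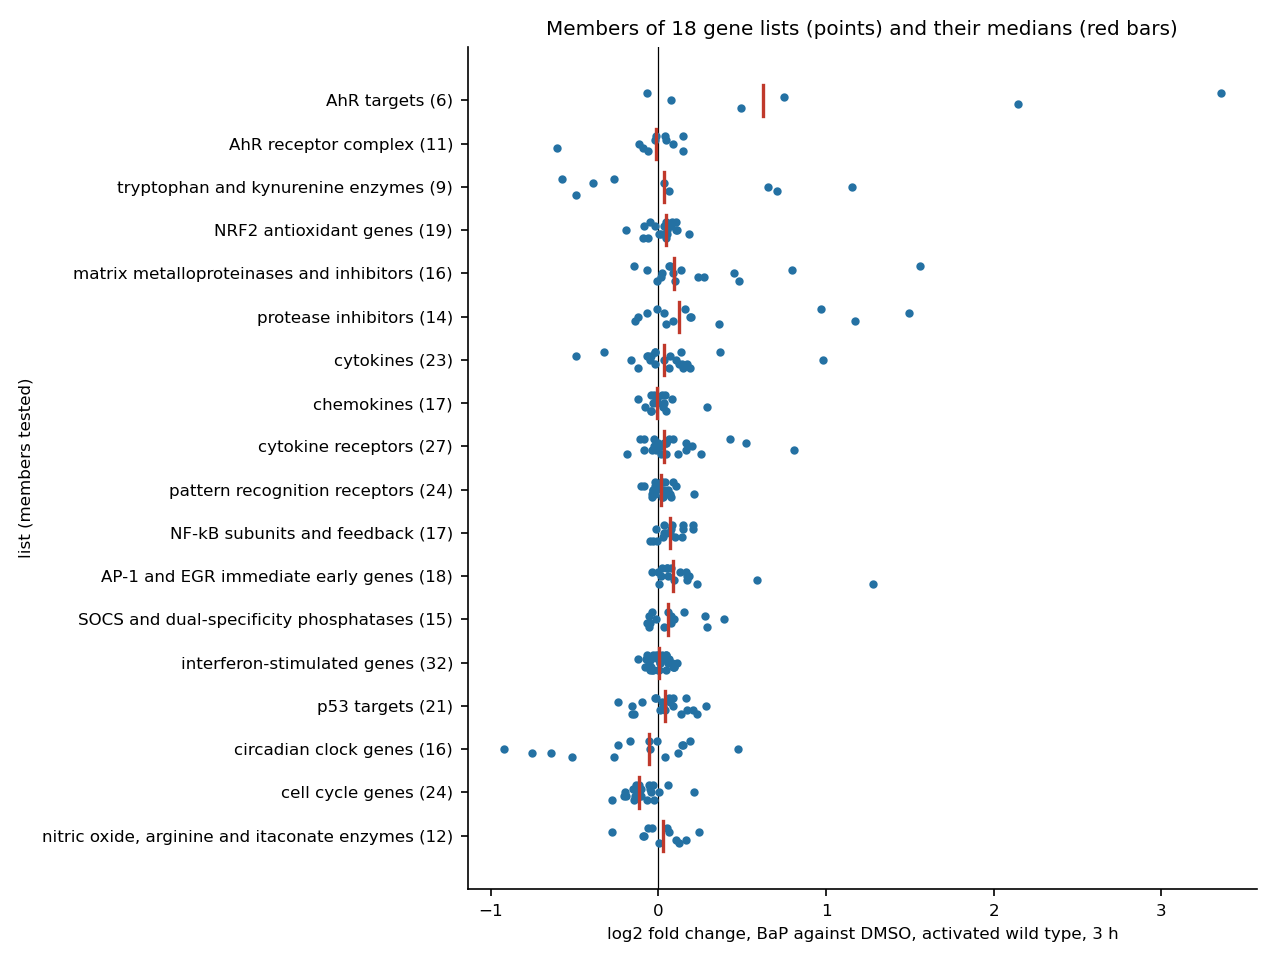
Log2 fold change of BaP against DMSO in activated Ahr+/+ BMMs at 3 h (horizontal axis) of every tested member (points) of 18 gene lists, with the number tested in brackets and the median as a red bar. Medians lie between -0.11 for the cell cycle and 0.12 for the protease inhibitors, apart from 0.62 for the AhR targets.

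The series of library identifiers in the labels splits the 8 libraries into 2 DMSO and 3 BaP libraries in one series and 2 DMSO and 1 BaP in the other. Within each series the BaP libraries lay above the DMSO libraries for all 7 called genes. This outcome was fixed in advance, because the groups of these genes did not overlap in the 8 libraries. The log2 ratios of mean CPM in the former and the latter were 3.64 and 2.89 for Ahrr, 1.18 and 1.24 for Arl4c, 1.31 and 1.09 for Eepd1, 1.48 and 1.43 for Spint1, 1.21 and 1.11 for Elmsan1, 0.31 and 0.35 for Exoc3 and 0.84 and 0.67 for Il21r. With the series as a term, 5 genes were called, without Exoc3 and Il21r.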

How the data were processed

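RNA of 64 libraries was sequenced by the authors as stranded, paired-end mRNA. Per the labels and methods, the authors aligned reads to mm10 with HISAT2 2.1.0 and counted them on GENCODE M22 with HTSeq 0.9.1, and the deposited counts are not normalized. The authors also deposited variance-stabilized log2 values, computed with DESeq2. Entries that name no gene were left out (for the 8 libraries compared, 3.65% to 4.56% of pairs fell outside genes, 1.07% to 1.18% were ambiguous and 12.8% to 14.1% aligned to several places).

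Counts were fitted in R 4.3.3 with edgeR 4.0.16 (quasi-likelihood, TMM, filterByExpr min.count 10, 16 group means, all 64 libraries, 48 residual degrees of freedom), with Benjamini-Hochberg adjustment over 14537 of 55487 genes and a threshold of 0.01. SE is the log2 change divided by the root of the F statistic, and 95% intervals use a t distribution with 48 degrees of freedom. CPM are TMM-normalized without a prior count. Intervals and floors cover counting error or spread between these libraries only.

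Replicate numbers were read as the 4 mice per genotype of the methods. As a check, deviations of same-numbered BaP and DMSO libraries correlated at 0.0668, 0.0810, 0.194 and 0.0826 across genes. Each library correlated best with its own number, although 1 of 4 lay above 0.1, so values with the replicate block are given where they change a call.

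Positions are from GENCODE M21 (GRCm38). Genes named are all called in either model, those with adjusted p up to 0.05, the 10 lower genes of smallest p, up to 5 called in the other comparisons, the AhR lists, 2 or 3 members of each other list, and the genes the study names. Members and lists were chosen with earlier results of these data known. The test was checked on simulated data. Alternatives were other models, tools (DESeq2 1.42.0, limma 3.58.1), size factors, filters and samples. A DESeq2 fit of the wild-type libraries with a replicate term was added after seeing the data.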

Additional observations from a re-analysis of the deposited data

Results flagged for a closer look

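The change with BaP differed between the genotypes, by the test of the difference itself, for Ahrr (3.69 on the log2 scale) and Arl4c (0.97), both larger in Ahr+/+ BMMs. Neither passed in a fit of the 16 libraries compared alone, and Arl4c was lost in most fits that left out 1 library. Outliers within a group of 4 libraries were sought by the ratio of the gap to the range, where chance flags about 1 in 20. The 34 groups of values examined came from the same 8 libraries and are not independent, so their count is not set against that rate. In 5 of the 34 groups, 1 library lay far from the other 3. These were DMSO replicate 3 for Ahrr, with 0.346 CPM against 0.562 to 0.582 CPM (ratio 0.917), and DMSO replicate 3 for Serpinb2, with 17.9 CPM against 11.7 to 12.4 CPM (0.880). BaP replicate 2 was the library apart for Spint1, with 3.94 CPM against 2.64 to 2.74 CPM (0.919), for Ugt1a7c, with 110 CPM against 92.5 to 95.2 CPM (0.848), and for the share of read pairs of low alignment quality, with 5.23% against 1.48% to 1.75% (0.928). Without BaP replicate 2 the log2 change was 1.34 for Spint1 and 0.43 for Ugt1a7c.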

How the results depend on the processing

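The 7 genes called with BaP were 13 with the replicate block within genotype and 22 with it within genotype and time. A fit of only the 8 libraries compared called 3 genes, of which 2 were among the 7, or 115 with the block (101 higher, 14 lower). DESeq2 called 26 on these libraries, and 33 on the wild-type libraries with a replicate term, a fit chosen after seeing the data. Leaving out 1 library gave 3 to 7. The difference between genotypes, 2 genes, came to 4 with the block within genotype and time, to 0 with only the libraries compared (312 at an unadjusted p below 0.05, and 2 by DESeq2), to 47 with these and the block, to 1 without the filter, and to 1 to 2 without 1 library. The difference between times, 0 genes, came to 2 at a threshold of 0.05, 1 with the block, 41 with it within genotype and time, 2 with only the libraries compared, 6 with these and the block, 2 by DESeq2 on all libraries and 14 on those compared, and 0 without any 1 library. BaP against I3C, 16 genes, came to 32 at 0.05, 33 with the block within genotype and time, 25 with only the libraries compared, 125 with these and the block, 28 by DESeq2 on all libraries and 52 on those compared, 44 by limma on the deposited log2 values, and 2 to 20 without 1 library (2 without I3C replicate 1, 3 without I3C replicate 2 or 4, 4 without BaP replicate 3, 7 without BaP replicate 1 or 4 and 9 without I3C replicate 3). The causes were not tested. The changes of the 13 genes and of the 10 lower genes kept their direction in these fits. Uncalled genes near 0 did not: Ahr turned from -0.01 to as much as 0.18 (without DMSO replicate 1), Slpi from 0.16 to -0.11 (without BaP replicate 3) and Fcgr1 from 0.02 to -0.08 (without BaP replicate 2), and Tnf, Il1b, Cxcl10, Hsp90ab1 and Gm5869 by less. Without BaP replicate 2 the medians of 6 of 19 gene lists changed sign, from -0.05 to 0.03 for clock genes, 0.04 to -0.04 for kynurenine enzymes, 0.02 to -0.03 for pattern recognition receptors, 0.03 to -0.01 for cytokines, 0.00 to -0.08 for interferon-stimulated genes and 0.01 to -0.04 for the genes the study names. Low counts limit Ahrr and Spint1 and hide any change of a few counts in the CYP1 genes. The spread is between 4 libraries a group, and BaP replicate 2 is the shallowest of the 8 libraries compared.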

Other observations

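Some genes outside the lists lay just outside the threshold, and they are named here after their values were seen. Ggta1, the enzyme that makes the alpha-gal epitope, had a log2 fold change of 0.65 (SE 0.15, adjusted p = 0.0724, edgeR), and Pim3, a serine/threonine kinase, one of 0.76 (SE 0.19, adjusted p = 0.229, edgeR).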
